A study of Mus musculus with 4 samples.

Results

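The 40 genes described here are those of the ATF4 amino acid program and of the unfolded protein response of the endoplasmic reticulum (ER). They are taken by symbol from a written list, which was drawn up with earlier results of these data known, and 39 of the 40 were measured among the 19938 genes of the array. Eif2s1, which encodes the alpha subunit of the initiation factor eIF2, is named by no probe set of the annotation that has a single symbol, and no value is given for it. The list falls into an ATF4 amino acid branch of 24 genes, 23 of them measured, and an ER chaperone branch of 16 genes, all measured.

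ATF4 is a transcription factor whose translation rises when a stress kinase phosphorylates eIF2 alpha. PERK (Eif2ak3) does so when unfolded protein builds up in the ER and GCN2 (Eif2ak4) when amino acids run short. ATF4 and its partners then drive genes for amino acid synthesis and uptake, and Ppp1r15a, a phosphatase subunit that reverses the phosphorylation. The other arms of the unfolded protein response run through ATF6, which is cut to release a transcription factor, and IRE1 (Ern1), which splices Xbp1 mRNA, and they drive chaperones and the disposal of misfolded protein. Myeloid cells, which make large amounts of granule protein, draw on both programs.

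RNA came from leukemic whole bone marrow of C57BL/6 mice. Both groups carried MLL-AF9, the oncogene that drove the leukemia and that arises from a chromosomal fusion in human myeloid leukemia. One group of 2 samples was Hes1+/+ (wild type) and the other, of 2 samples, was Hes1-/- (Hes1-null). Hes1 encodes a repressor induced by Notch signalling, and the study asked about its part in the suppression of this leukemia. Each sample was hybridised to 1 Affymetrix mouse gene array. The labels give neither the age of the mice nor whether the samples came from separate animals, so p-values measure only the spread between these samples, which may be partly technical. In whole marrow, fewer cells of a type and less RNA per cell cannot be told apart.

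Levels below are log2 of the deposited intensities, listed as replicates 1 and 2, and differences are the Hes1-null mean less the wild-type mean ± the standard error (SE) on the log2 scale, over n = 2 arrays of each genotype. Intensities of different probe sets are not compared as amounts. The deposited array medians ran from 65.0 to 67.3 on the linear scale. With so few arrays each value is imprecise. Hes1 itself lay at 5.59 and 5.79 in wild type and at 5.43 and 5.84 in Hes1-null (difference -0.06 ± 0.18, adjusted p = 0.968). The probe set therefore does not check the genotype labels. The pan-leukocyte gene Ptprc lay between 10.38 and 10.50 on the 4 arrays, and Hoxa9, a target of MLL fusions, between 10.40 and 10.78.

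Hes1-null replicate 2 stood apart from the other arrays in Xist, the RNA of the inactive X chromosome. Its Xist level was 7.25, whereas the other 3 arrays were at 11.73 or more, and none of 4 Y-linked genes exceeded 4.09 on any array. Over all genes the gap between replicates had a median of 0.25 in Hes1-null and 0.11 in wild type. Over the 39 stress genes these medians were 0.38 and 0.10, and the Hes1-null gap was the larger for 33 of the 39 (84.6%, beside 72.1% of all genes). A gap of at least 0.5 was seen for 11 of the 39 in Hes1-null (28.2%, beside 19.6% of all genes) and for 0 in wild type (3.06% of all genes). Replicate 2 of Hes1-null was the lowest of the 4 arrays for 21 of the 39 (53.8%, beside 30.6%). Where the genotypes did not overlap and the difference moved by over 1.5 times without that array, the value without it is given. For the 18 genes that overlapped, the differences without it lay between -0.32 (Ddit4) and 0.56 (Shmt2).

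None of the 39 genes passed the test across all genes (limma, Benjamini-Hochberg adjusted p under 0.05), where 0.145% of the 19938 genes passed. At an unadjusted p under 0.05, 4 of the 39 were higher in Hes1-null (Ppp1r15a, Ddit3, Herpud1 and Atf6) and 4 were lower (Asns, Slc7a11, Hsp90b1 and Cebpg). These are 10.3% of the list in each direction, beside 3.51% of all genes higher and 4.78% lower. The genotypes did not overlap for 7 genes that were higher (17.9%) and 14 that were lower (35.9%), beside 17.4% and 20.6% of all genes. The share of higher genes was thus near the background and the share of lower genes above it. The median difference over the 39 was -0.09, against -0.02 over all genes.

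Leaving out a single array changed these calls. Without Hes1-null replicate 1, which leaves the divergent replicate 2 alone in its group and assumed to vary like the others, 8 of the 39 were called lower and 3 higher, where 5.01% of all genes were called. Without Hes1-null replicate 2 none was called. At an unadjusted p under 0.05 the counts were then 7 higher and 5 lower, beside 8.68% and 8.14% of all genes. They were 7 and 16 without Hes1-null replicate 1, beside 12.7% and 16.3% of all genes. Leaving out the first wild-type array gave 1 and 2, beside 1.25% and 2.3% of all genes, and leaving out the second gave 2 and 1, beside 1.3% and 2.03%.

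**Figure D1:**
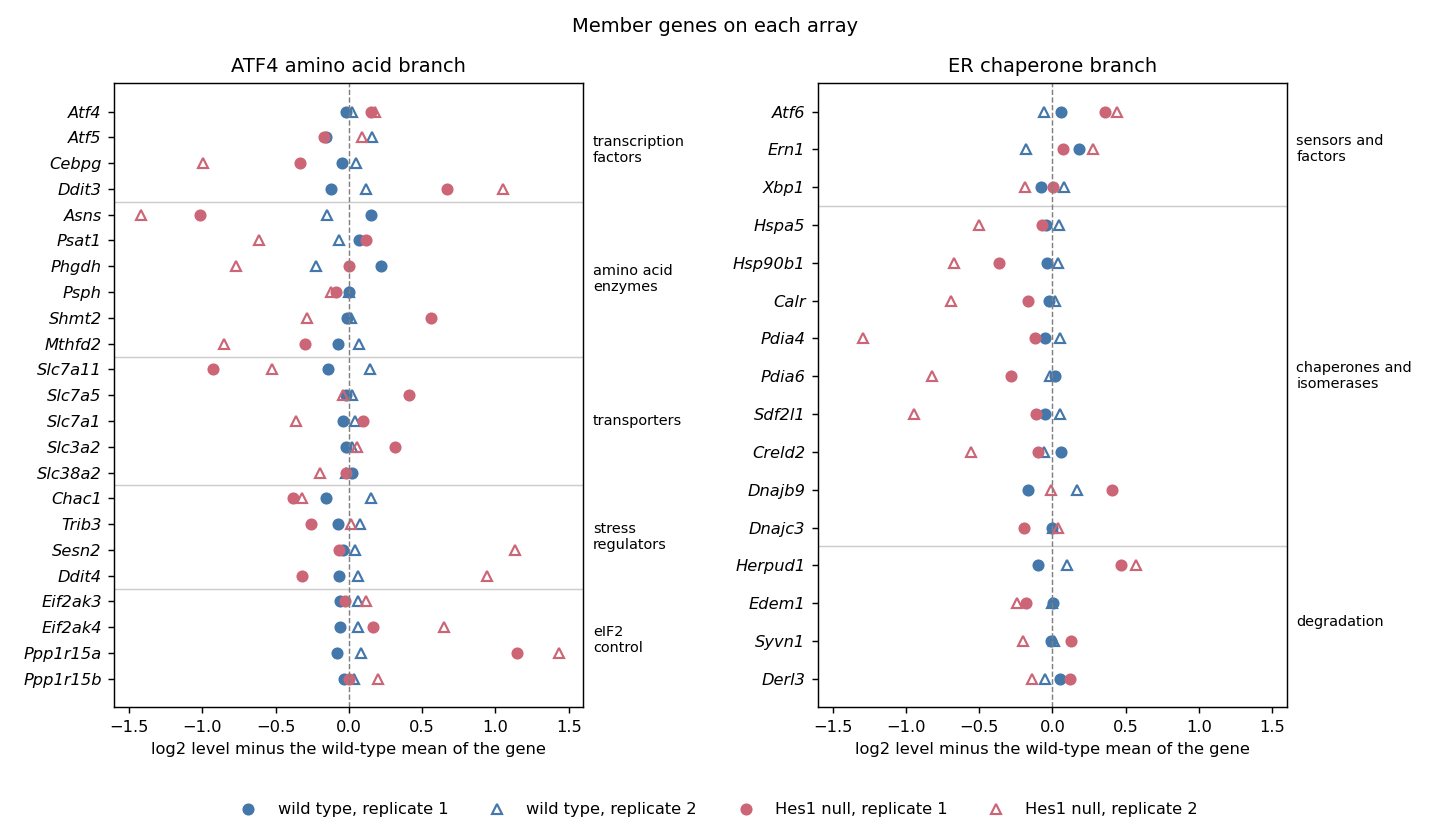
Each row is 1 of the 39 measured genes, by branch and role, and each symbol 1 array, placed at its log2 level minus the mean of that gene in wild type (circles for replicate 1, open triangles for replicate 2, blue for wild type and red for Hes1-null). The blue symbols lie close together, whereas the red triangles of Hes1-null replicate 2 lie farthest left for most chaperones and enzymes, and both red symbols lie right of the blue ones for Ppp1r15a and Ddit3.

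Among the transcription factors of the ATF4 branch, Ddit3 was higher in Hes1-null and Cebpg lower, and neither passed the adjusted test. Ddit3 encodes CHOP, a factor that ATF4 induces under prolonged stress. It lay at 6.77 and 7.01 in wild type and at 7.56 and 7.94 in Hes1-null. Both Hes1-null arrays exceeded both wild-type arrays, with a difference of 0.86 ± 0.20 (1.82-fold, unadjusted p = 0.0069, adjusted p = 0.306). Cebpg encodes C/EBP gamma, a partner of ATF4 on amino acid response elements. Its levels were 8.22 and 8.31 in wild type and 7.93 and 7.27 in Hes1-null, a difference of -0.67 ± 0.26 (unadjusted p = 0.045, adjusted p = 0.593). With arrays centred on their medians the unadjusted p was 0.0561 (limma). Both Hes1-null arrays were below wild type, the second by more, and without it the difference was -0.34.

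Atf4 mRNA itself was 8.18 and 8.22 in wild type and 8.36 and 8.38 in Hes1-null. The genotypes did not overlap, but the difference was small at 0.17 ± 0.16 (adjusted p = 0.866), with a 95% interval from -0.23 to 0.56. ATF4 is controlled largely at translation, which an array of RNA levels does not read. Atf5, a related factor, overlapped between genotypes (-0.04 ± 0.19).

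The enzymes of serine, asparagine and one-carbon metabolism had a median difference of -0.32 over 6 genes. All 6 were lowest of the 4 arrays on Hes1-null replicate 2 (30.6% of all genes were), where their median stood 0.69 below the wild-type mean, against 0.04 below it on replicate 1. Asns, asparagine synthetase, was the member with the lowest unadjusted p among these. Its levels were 9.93 and 9.63 in wild type and 8.76 and 8.36 in Hes1-null. Both Hes1-null arrays were below wild type by more than either genotype's replicate gap, with a difference of -1.22 ± 0.21 (2.33-fold, 95% interval -1.76 to -0.68, unadjusted p = 0.00184, adjusted p = 0.184). Without Hes1-null replicate 2 the difference was -1.02.

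Mthfd2, a mitochondrial enzyme of the folate cycle, lay at 9.20 and 9.34 in wild type and at 8.97 and 8.41 in Hes1-null (-0.58 ± 0.23, adjusted p = 0.607, and -0.30 without Hes1-null replicate 2). Psph, which completes serine synthesis, did not overlap either, but the genotypes were only 0.11 ± 0.15 apart, with Hes1-null lower. The first enzyme of that pathway, Phgdh (-0.38 ± 0.31), and the second, Psat1 (-0.25 ± 0.26), overlapped. Shmt2, which moves a carbon from serine to folate, was both the highest and the lowest in Hes1-null, at 10.98 and 10.14. Of these 6 enzymes only Asns had an unadjusted p under 0.05.

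The amino acid transporters divided by gene. Slc7a11 encodes the cystine importer of the xCT system, which feeds glutathione synthesis. It lay at 5.44 and 5.73 in wild type and at 4.66 and 5.06 in Hes1-null, with both Hes1-null arrays lower. The difference was -0.73 ± 0.19 (1.65-fold, unadjusted p = 0.0107, adjusted p = 0.37), and here replicate 1 was the lower of the Hes1-null arrays. Slc3a2, the heavy chain shared by xCT and the leucine transporter, was higher on both Hes1-null arrays by a small margin (0.19 ± 0.13, adjusted p = 0.791, and 0.32 without the second). Its leucine-transporting light chain Slc7a5 (0.19 ± 0.17), the arginine and lysine transporter Slc7a1 (-0.13 ± 0.20) and the glutamine transporter Slc38a2 (-0.11 ± 0.11) overlapped.

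Of the stress regulators, Chac1, which breaks down glutathione, was 6.76 and 7.06 in wild type and 6.53 and 6.59 in Hes1-null (-0.35 ± 0.17, unadjusted p = 0.0882, adjusted p = 0.677). Trib3, a pseudokinase that restrains ATF4, was 6.11 and 6.26 against 5.93 and 6.20 and overlapped (-0.12 ± 0.16, adjusted p = 0.908). Sesn2 and Ddit4, which both restrain the growth kinase mTORC1, differed between the Hes1-null arrays. Sesn2 lay at 7.44 and 7.53 in wild type, at 7.42 on Hes1-null replicate 1 and at 8.62 on replicate 2 (0.53 ± 0.40, adjusted p = 0.807). Ddit4 lay at 8.28 and 8.41 in wild type, at 8.02 on Hes1-null replicate 1 and at 9.29 on replicate 2 (0.31 ± 0.42, adjusted p = 0.908). For both genes replicate 2 was the highest of the 4 arrays and replicate 1 the lowest. Hypoxia also induces Ddit4. Of the 12 genes of a hypoxia and glycolysis list, 5 lay above both wild-type arrays and 6 below both on replicate 2. These are 41.7% and 50%, beside 42.1% and 40% of all genes. On replicate 1, 3 lay above both and 6 below both (25% and 50%, beside 34.4% and 44.3%). On replicate 2 Bnip3 stood 0.61, Slc2a1 0.42 and Vegfa 0.37 above the wild-type mean. On the same array Ndrg1 was at -1.14, Egln3 at -0.998, Pfkl at -0.54 and Car9 at -0.48 relative to that mean. All of these genes were named after their values were seen. Between genotypes 1 of the 12 was higher and 3 lower without overlap (8.33% and 25%, beside 17.4% and 20.6% of all genes). The part of hypoxia in the Ddit4 values was not tested.

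Promoter stretches are shown for 4 ATF4-branch genes whose genotypes did not overlap, Asns, Slc7a11 and Chac1 with lower levels in Hes1-null and Ppp1r15a with higher ones. They come from RefSeq windows that run from 250 bases before the start of the gene to 50 after it (build GRCm38.p6), which 37 of the 40 genes have. Ppp1r15b, Atf6 and Slc7a5 have none. Capitals mark the C/EBP-ATF response element (CARE), searched as TGATGNAA on both strands, or, in Ppp1r15a, the cyclic AMP response element (CRE), searched as TGACGTCA.
Asns, chr6:7693210-7693272, minus strand: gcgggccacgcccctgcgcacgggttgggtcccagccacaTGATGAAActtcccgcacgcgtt
Slc7a11, chr3:50443614-50443719, minus strand: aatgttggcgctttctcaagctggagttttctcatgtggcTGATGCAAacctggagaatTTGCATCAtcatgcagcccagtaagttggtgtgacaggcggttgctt
Chac1, chr2:119351009-119351096, plus strand: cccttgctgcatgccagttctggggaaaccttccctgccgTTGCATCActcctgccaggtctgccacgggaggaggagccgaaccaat
Ppp1r15a, chr7:45526269-45526320, minus strand: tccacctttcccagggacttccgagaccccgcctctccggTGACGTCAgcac
Counting from the start of the gene, with -1 the base just before it, the CARE of Asns lies at -23 to -16. Slc7a11 has a pair, at -66 to -59 and at -47 to -40. Of the 22 ATF4-branch genes with a window, 4 held a CARE (18.2%), beside 4.51% of 27025 genes. The fourth was Trib3. The CRE of Ppp1r15a was the only one among the 22 (4.55%, beside 2.03% of all genes). A match describes the letters and shows no binding.

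The 5 genes of the whole list with a CARE, the fifth being Herpud1 of the ER branch, did not share a direction. Asns, Slc7a11 and Chac1 were lower in Hes1-null without overlap, Herpud1 was higher and Trib3 overlapped, with a median of -0.35. Among 560 other genes with a CARE, 17.9% were higher and 19.1% lower without overlap, and their median was -0.01. Those shares lay near the 17.4% and 20.6% of all genes.

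The 4 measured genes that control the phosphorylation of eIF2 had a median difference of 0.25. Ppp1r15a and Eif2ak4 were higher on both Hes1-null arrays (50% of the 4, beside 17.4% of all genes), and Ppp1r15b and Eif2ak3 overlapped. None passed the adjusted test (limma), and 1 was higher at an unadjusted p under 0.05 (25%, beside 3.51% of all genes). Ppp1r15a encodes GADD34, the inducible phosphatase subunit that restores translation. It lay at 6.22 and 6.39 in wild type and at 7.45 and 7.74 in Hes1-null. Both Hes1-null arrays were more than 1 log2 unit above both wild-type arrays, and the replicates lay close. The difference of 1.29 ± 0.18 (2.45-fold, 95% interval 0.85 to 1.73) had the lowest p of the 39 genes (unadjusted p = 0.000525, adjusted p = 0.105). It was 1.15 without Hes1-null replicate 2.

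Ppp1r15b, the constitutive counterpart of Ppp1r15a, overlapped at 0.10 ± 0.17. Eif2ak4, the amino acid sensor GCN2, was 7.63 and 7.76 in wild type and 7.86 and 8.34 in Hes1-null (0.41 ± 0.22, adjusted p = 0.718, and 0.16 without Hes1-null replicate 2). Eif2ak3, the ER sensor PERK, was 8.31 and 8.43 against 8.34 and 8.49 and overlapped (0.05 ± 0.17, 95% interval -0.38 to 0.47, and -0.03 without that array). Kinase activity is set by phosphorylation, so these RNA levels do not report it.

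**Figure D2:**
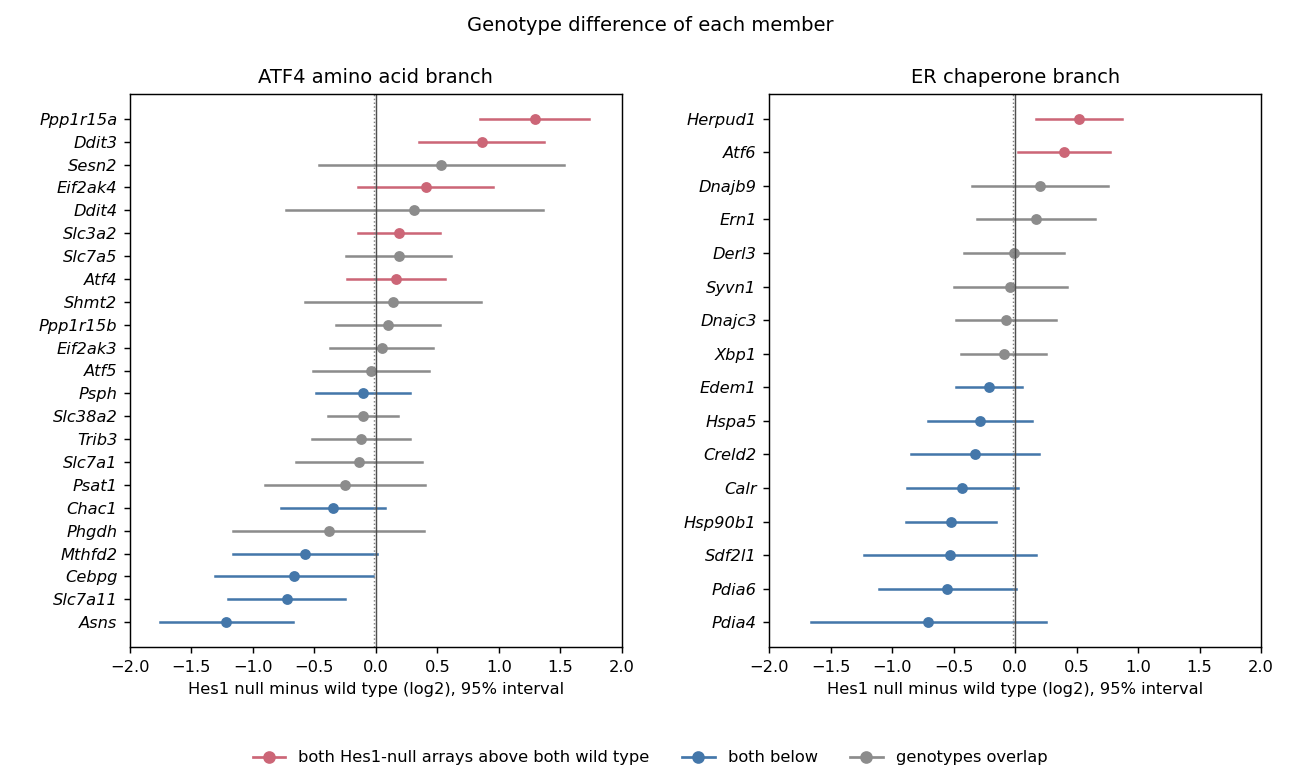
Points are the difference of each gene, Hes1-null minus wild type on the log2 scale, with its 95% interval from limma, ordered by size within each branch; the dotted line is the median over all genes, at -0.02. Red marks genes with both Hes1-null arrays above both wild-type arrays (5 and 2 genes in the ATF4 and ER branches, or 21.7% and 12.5%, beside 17.4% of all genes). Blue marks those with both below (6 and 8, or 26.1% and 50%, beside 20.6% of all genes), and grey those that overlap.

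In the ER chaperone branch 1 of 3 sensors and factors was higher in Hes1-null without overlap (33.3%, beside 17.4% of all genes). Of 9 chaperones and isomerases 7 were lower (77.8%, beside 20.6% of all genes), and none of the branch passed the adjusted test. Atf6 lay at 9.52 and 9.40 in wild type and at 9.82 and 9.90 in Hes1-null. Both Hes1-null arrays were higher, with a difference of 0.40 ± 0.15 (1.32-fold, unadjusted p = 0.0417, adjusted p = 0.58). The unadjusted p was 0.0801 with the replicate number as a block and 0.0521 with array weights. Ern1, which encodes IRE1 alpha, was 9.65 and 9.29 against 9.54 and 9.75 and overlapped (0.17 ± 0.19, adjusted p = 0.89). Xbp1, the target that IRE1 splices, was 10.83 and 10.98 against 10.90 and 10.71 and overlapped too (-0.09 ± 0.14, adjusted p = 0.916). The gene-level value does not separate spliced from unspliced Xbp1.

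The chaperones and disulfide isomerases had the lowest median of the 8 roles, -0.43 over 9 genes. Of these, 7 were lower in Hes1-null without overlap (77.8%, beside 20.6% of all genes) and 0 were higher (beside 17.4% of all genes). The difference lay mostly on Hes1-null replicate 2, where the median stood 0.67 below the wild-type mean, against 0.12 below it on replicate 1. Replicate 1 was below both wild-type arrays for 8 of the 9 (beside 44.3% of all genes), and replicate 2 for 7 (beside 40% of all genes). Only Hsp90b1 among them had an unadjusted p under 0.05, and with limma none had an adjusted p under 0.05.

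Hsp90b1 encodes GRP94, the HSP90 of the ER. Its levels were 11.33 and 11.41 in wild type and 11.01 and 10.70 in Hes1-null, so that both Hes1-null arrays were below both wild-type arrays. The difference was -0.52 ± 0.15 (1.43-fold, unadjusted p = 0.0142, adjusted p = 0.421), and -0.36 without Hes1-null replicate 2. Hspa5 encodes BiP, the main ER chaperone and the usual readout of the unfolded protein response. It lay at 11.40 and 11.49 in wild type and at 11.38 and 10.94 in Hes1-null. Replicate 1 thus lay just under wild type, and the difference was -0.29 ± 0.17 (adjusted p = 0.749), or -0.07 without Hes1-null replicate 2.

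Pdia4, a disulfide isomerase, had the widest gap between Hes1-null arrays among the chaperones and isomerases. It was 10.65 and 10.76 in wild type, 10.59 on Hes1-null replicate 1 and 9.41 on replicate 2 (-0.71 ± 0.38, adjusted p = 0.719). Without replicate 2 its difference was -0.12. A second Pdia4 probe set, dimmer, gave 6.25 and 5.74 against 6.10 and 4.91, so its genotypes overlapped. Pdia6, a related isomerase, was 9.76 and 9.72 against 9.46 and 8.91 (-0.55 ± 0.22, adjusted p = 0.607, and -0.28 without Hes1-null replicate 2).

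Calr, the calcium-binding lectin chaperone calreticulin, was 12.38 and 12.42 against 12.23 and 11.71 (-0.43 ± 0.18, adjusted p = 0.614). Sdf2l1, a member of a large ER chaperone complex, was 11.17 and 11.28 against 11.11 and 10.28 (-0.53 ± 0.28, adjusted p = 0.706). Creld2, an ER stress gene with disulfide isomerase activity, was 9.58 and 9.47 against 9.43 and 8.97 (-0.33 ± 0.21, adjusted p = 0.77). In each of these the first Hes1-null array lay just below the wild-type levels and the second further below. Without that second array the differences were -0.17 for Calr, -0.11 for Sdf2l1 and -0.10 for Creld2. The BiP co-chaperones Dnajb9 (0.20 ± 0.22) and Dnajc3 (-0.08 ± 0.16) overlapped, and both Dnajc3 probe sets hold the same values.

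The degradation genes had differences in both directions. Herpud1 encodes an ER membrane protein that organises the ubiquitin ligase complex for misfolded proteins. It lay at 10.22 and 10.42 in wild type and at 10.78 and 10.89 in Hes1-null. Both Hes1-null arrays were higher, by 0.52 ± 0.14 (1.43-fold, unadjusted p = 0.0122, adjusted p = 0.395), and by 0.47 without replicate 2. Edem1, which directs misfolded glycoproteins to disposal, was lower on both Hes1-null arrays by 0.21 ± 0.11 (adjusted p = 0.697). The ligase Syvn1 (-0.04 ± 0.18) and the channel component Derl3 (-0.01 ± 0.16) overlapped.

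The 2 branches differed in promoter letters. The ER stress response element (ERSE) is CCAAT, then 9 bases of any kind, then CCACG, and was searched on both strands. It stood in 8 of the 15 ER-branch genes with a window (53.3%) and in 0 of the 22 ATF4-branch genes, beside 0.137% of all 27025 genes. The list was drawn from known stress genes, so this share describes the list. The stretches below are from the same windows, with the ERSE in capitals, and Herpud1 is shown because it went the other way.
Hspa5, chr2:34771985-34772083, plus strand: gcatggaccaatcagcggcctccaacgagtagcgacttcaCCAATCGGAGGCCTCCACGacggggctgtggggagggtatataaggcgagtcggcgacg
Hsp90b1, chr10:86705493-86705694, minus strand: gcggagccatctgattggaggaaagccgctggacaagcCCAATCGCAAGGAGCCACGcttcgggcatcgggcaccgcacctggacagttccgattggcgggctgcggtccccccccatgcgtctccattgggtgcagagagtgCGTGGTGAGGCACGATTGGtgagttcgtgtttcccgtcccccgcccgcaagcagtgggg
Calr, chr8:84847035-84847133, minus strand: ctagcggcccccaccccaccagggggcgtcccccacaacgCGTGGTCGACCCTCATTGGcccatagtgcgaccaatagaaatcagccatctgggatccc
Pdia6, chr12:17266451-17266549, plus strand: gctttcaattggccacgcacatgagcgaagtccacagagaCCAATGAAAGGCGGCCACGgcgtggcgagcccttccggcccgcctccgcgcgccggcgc
Creld2, chr15:88819480-88819578, plus strand: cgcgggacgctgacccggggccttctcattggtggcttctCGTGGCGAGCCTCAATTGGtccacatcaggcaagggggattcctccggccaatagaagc
Herpud1, chr8:94386277-94386427, plus strand: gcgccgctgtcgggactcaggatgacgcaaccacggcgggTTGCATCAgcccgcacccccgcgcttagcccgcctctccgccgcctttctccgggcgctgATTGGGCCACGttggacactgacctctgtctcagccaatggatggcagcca
In Herpud1 the capitals mark a CARE at -112 to -105 and an ERSE-II (ATTGG, 1 base of any kind, CCACG) at -52 to -42. It was the only gene of the 37 with an ERSE-II, which 0.0444% of all genes hold. Hsp90b1 holds a pair of ERSE copies, and the other 3 genes with an ERSE are Derl3, Dnajc3 and Syvn1. The element includes a CCAAT box, which alone stands in 86.7% of ER-branch windows, 63.6% of ATF4-branch windows and 41.1% of all. The UPRE core TGACGTGG stood in none of the 37 windows, beside 0.714% of all genes.

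The 8 genes with an ERSE all belong to the ER branch. Of them, 5 were lower in Hes1-null without overlap (62.5%, beside 50% of the ER branch and 20.6% of all genes). The other 3 overlapped, and the median of the 8 was -0.31. The 5 lower genes are the ones printed before Herpud1. Without Hes1-null replicate 2 their differences ran from -0.36 (Hsp90b1) to -0.07 (Hspa5). The part of the element in these levels was not tested. Among 13 other measured genes with an ERSE, 4 were lower, 2 were higher and 7 overlapped, with a median of -0.09. The shares of the 13 were 30.8% lower and 15.4% higher, beside 20.6% and 17.4% of all genes.

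The branches are summarised by count, beside 17.4% of all genes higher and 20.6% lower without overlap. In the ATF4 branch 5 of 23 genes were higher without overlap (21.7%) and 6 lower (26.1%), with a median of -0.04. In the ER branch 2 of 16 were higher (12.5%) and 8 lower (50%), with a median of -0.15. Without Hes1-null replicate 2 the medians were -0.02 and -0.08, and with 1 Hes1-null array left, 10 ATF4-branch genes and 9 ER-branch genes lay below both wild-type arrays (43.5% and 56.2%, beside 44.3% of all genes), and 9 and 5 above them (39.1% and 31.2%, beside 34.4%). On that single Hes1-null array the ATF4-branch share below was near that of all genes. The ER-branch share rests on 9 of 16 genes on 1 array, and the median of -0.08 there lay beside -0.04 over all genes. The difference between the branches was not tested.

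**Figure D3:**
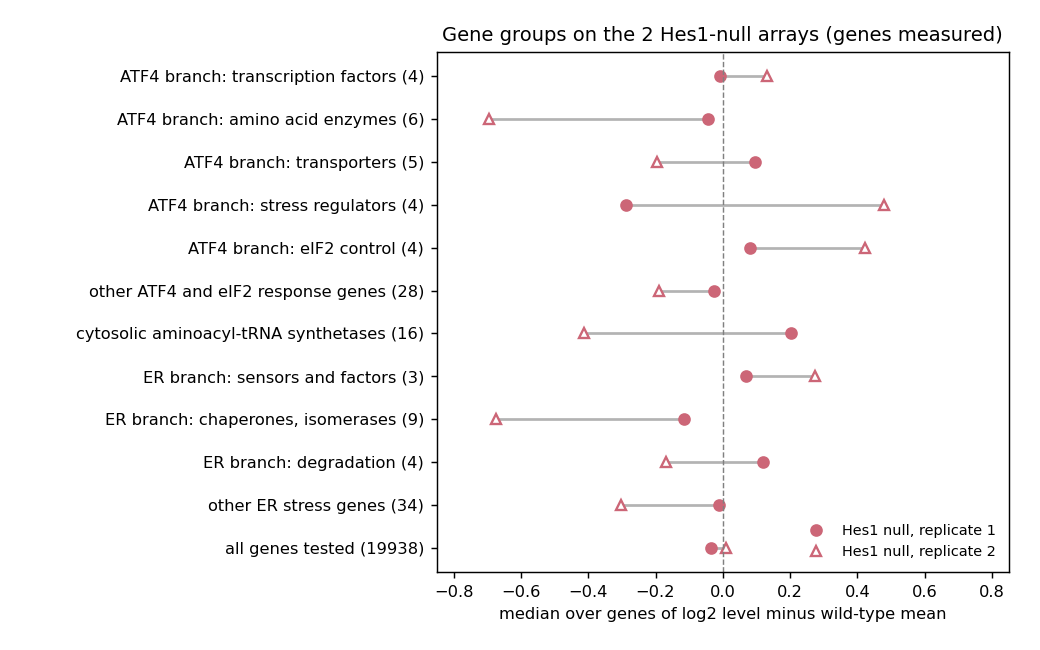
For each gene group, a circle (Hes1-null replicate 1) and an open triangle (replicate 2) mark the median over its genes of the log2 level minus the wild-type mean, joined by a line, with the number of genes measured in brackets. The chaperones and isomerases lie at -0.12 on replicate 1 and -0.67 on replicate 2, the enzymes at -0.04 and -0.69, and the synthetases on opposite sides of 0.

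Other genes of the same pathways, from lists also drawn up with earlier results of these data known, were read beside the 39. Of 30 further genes of the ATF4 and eIF2 response 28 were measured. With limma none had an adjusted p under 0.05. At an unadjusted p under 0.05 there was 1 higher (3.57%) and 3 lower (10.7%), beside 3.51% and 4.78% of all genes. Without overlap 2 were higher (7.14%) and 8 lower (28.6%), beside 17.4% and 20.6% of all genes. The median of the 28 was -0.09. The 4 of them with the lowest unadjusted p were Bcat1, Atf3, Nupr1 and Pck2.

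Atf3, a repressor that ATF4 and many other stimuli induce, was 6.73 and 6.55 in wild type and 8.55 and 10.08 in Hes1-null (2.67 ± 0.49, 6.37-fold, adjusted p = 0.203). It was far higher on both Hes1-null arrays, the second most. Bcat1, which transaminates branched-chain amino acids, was 6.45 and 6.56 against 5.41 and 5.57 (-1.02 ± 0.14, 2.03-fold, adjusted p = 0.105). Nupr1, a stress-induced chromatin factor, was 6.34 and 6.37 against 5.63 and 5.81 (-0.64 ± 0.14, adjusted p = 0.267). Pck2, which makes phosphoenolpyruvate in mitochondria, was 8.39 and 8.56 against 8.13 and 7.62 (-0.60 ± 0.23, adjusted p = 0.58). Its difference was -0.35 when Hes1-null replicate 2 was left out.

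The cytosolic aminoacyl-tRNA synthetases, which charge tRNAs and include many ATF4 targets, lay on opposite sides of wild type on the Hes1-null arrays. On replicate 1, 11 of the 16 measured of 18 lay above both wild-type arrays (68.8%, beside 34.4% of all genes), with a median 0.20 above the wild-type mean. On replicate 2, 13 of the 16 lay below both (81.2%, beside 40%), with a median of -0.41. Neither direction gave an unadjusted p under 0.05 (limma), and none passed the adjusted test. The 4 with the lowest unadjusted p were Eprs (-0.35 ± 0.20, adjusted p = 0.726), Wars (0.28 ± 0.16, adjusted p = 0.735), Vars (0.20 ± 0.13, adjusted p = 0.783) and Gars (-0.31 ± 0.23, adjusted p = 0.802). Without Hes1-null replicate 2 Eprs was at -0.15 and Gars at -0.01.

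Of 36 other ER stress and secretory genes 34 were measured, and 27 of them had a negative difference, as did 10677 of all 19938 genes. At an unadjusted p under 0.05 there was 1 higher (2.94%) and 3 lower (8.82%), beside 3.51% and 4.78% of all genes. None passed the adjusted test. Without overlap 4 were higher (11.8%) and 13 lower (38.2%), beside 17.4% and 20.6% of all genes. The median of the 34 was -0.15, with -0.01 on Hes1-null replicate 1 and -0.30 on replicate 2. Sec61b, a subunit of the translocation channel, was 9.61 and 9.24 against 7.85 and 8.71 (-1.15 ± 0.32, adjusted p = 0.423), here lowest on replicate 1. That value is from the brightest of 3 Sec61b probe sets, and the others are not given here. Uggt1, which tests glycoprotein folding, was lower by 0.50 ± 0.14 (adjusted p = 0.441) and Spcs3, a signal peptidase subunit, by 0.59 ± 0.18 (adjusted p = 0.448). Selenok, an ER selenoprotein, was higher by 0.39 ± 0.15 (adjusted p = 0.586).

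Lists of other genes differed between the same arrays. Immediate early genes, listed as a possible sign of sample handling and including Atf3, had 13 of 14 higher in Hes1-null without overlap, with a median of 1.38. All genes were higher without overlap in 17.4%. Whether handling or genotype set the levels of the immediate early genes was not tested. Their summed linear level was 4750 to 5310 in wild type and 13144 to 20714 in Hes1-null, higher on both arrays, as Ppp1r15a and Ddit3 were. The part of the immediate early genes, or of handling, in the Ppp1r15a and Ddit3 values was not tested. Cytosolic heat shock genes had 2 of 7 higher and 2 lower without overlap (28.6% each, beside 17.4% and 20.6% of all genes), with a median of -0.09.

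Most genes of a neutrophil and of a monocyte and macrophage list were lower on both Hes1-null arrays, and 1 of each passed the adjusted test. Over all genes 20.6% were lower and 17.4% higher without overlap. Neutrophil genes had 11 of 14 lower without overlap (78.6%) and 2 higher (14.3%, Mmp8 and Ctsg). Their summed linear level was 37693 to 42828 in wild type and 20823 to 21037 in Hes1-null. Monocyte and macrophage genes had 10 of 14 lower (71.4%) and 4 that overlapped, with sums of 19557 to 21636 and 14770 to 14938. Single neutrophil genes differed between Hes1-null replicates 1 and 2 in both directions, with Mpo at 11.74 and 10.13, Elane at 11.70 and 11.17, S100a8 at 8.09 and 9.70 and Ms4a3 at 6.60 and 8.16, 4 genes named after their values were seen. Plasma cells are rich in ER chaperones. Of their 10 genes 5 were lower without overlap (50%, Jchain, Slamf7, Irf4, Prdm1 and Tnfrsf17) and 3 higher (30%, Sdc1, Tnfrsf13b and Eaf2). None passed the adjusted test (limma). At an unadjusted p under 0.05 there were 3 lower (30%) and 2 higher (20%), beside 4.78% and 3.51% of all genes. The summed level of the plasma cell genes, to which Tnfrsf13b gave the largest share, was 1066 to 1193 in wild type and 1079 to 1143 in Hes1-null. Megakaryocyte genes had 6 of 7 lower without overlap, T and NK cell genes 6 of 9, stromal genes 7 of 10, B cell genes 2 of 9 and erythroid genes 1 of 9. The part of these cells in the stress gene values was not tested.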

How the data were processed

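Total RNA of 4 leukemic marrow samples was measured on 4 Affymetrix arrays. The deposited values are probe set intensities on a linear scale. The submitters' processing notes name RMA and Affymetrix Expression Console, and their versions are not given in these sources. RMA puts arrays on a common scale, so a difference in total RNA would not show. Here log2 was taken, with no value added and no filter on dim probe sets. Of 35556 probe sets, 21789 have 1 gene symbol, 1621 several, and 12146 are not listed. Each of 999 genes with several probe sets was represented by the probe set of highest mean. The test was that of limma 3.58.1, run in R 4.3.3 (lmFit, eBayes with an intensity trend, two-sided, genotype as the only term), adjusted by Benjamini-Hochberg over 19938 genes, with 2 residual and 3.41 prior degrees of freedom. An exact permutation of 2 against 2 arrays cannot go below p = 0.333. The fit was tested on simulated data with equal spread on all arrays and with changes larger than any member showed. That test does not cover differences of the size seen here or a divergent array.

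The genes and lists were chosen with earlier results of these data known. Given in full are Atf4, Ddit3, Asns, Trib3, Chac1, Eif2ak3, Xbp1, Atf6, Ern1 and Hspa5, and members with an unadjusted p under 0.05 or non-overlapping genotypes at least 1.5-fold apart. The others are given in short. Of each further pathway list, up to 4 genes of lowest unadjusted p are named. Xist and the Y-linked genes were added as a check.

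The alternatives were a replicate block, a further quantile normalization, median centring, a filter at the 25th percentile of level, no intensity trend, array weights, averaging the probe sets of a gene, and leaving out each array.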

Additional observations from a re-analysis of the deposited data

How the results depend on the processing

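Over 11 alternatives, the 16 genes given in full yielded 176 values, of which 166 kept their direction and their side of the threshold. Of the rest, 5 turned in sign, each near 0: Eif2ak3 without the first wild-type array (-0.016) or the second Hes1-null array (-0.026), Ern1 without the second wild-type array (-0.0060), Trib3 without the first Hes1-null array (0.013) and Xbp1 without the second (0.0012). Over single arrays left out, Eif2ak3 ran from -0.026 to 0.12, Ern1 from -0.0060 to 0.35, Trib3 from -0.26 to 0.013 and Xbp1 from -0.19 to 0.0012. The other 5 passed the adjusted test without the first Hes1-null array, with Asns at -1.42, Cebpg at -0.997, Hsp90b1 at -0.67, Pdia4 at -1.29 and Ppp1r15a at 1.44. All genes called numbered 29, and 89 with the replicate block, 17 with the 25th percentile filter and 45 with array weights. The labels speak of pairs but do not say what a replicate number shares, and same-numbered deviations correlated at r = 0.050. With the block the lowest adjusted p of the 39 was 0.0628, for Ppp1r15a. Members higher at an unadjusted p under 0.05 numbered 4, and 3 with the block and 3 with array weights, each without Atf6. Members lower at that p numbered 4, and 7 with quantile normalization and 7 with array weights. They numbered 6 with the block, 6 with no intensity trend and 3 with median centring, the last without Cebpg. Other pathway genes higher at that p numbered 2, and 1 with the block and 1 with array weights. The ATF4-branch median was 0.02 after quantile normalization. Leaving out 1 array at a time gave 6 to 999 genes called, 0 to 3 members called higher and 0 to 8 lower, and 1 to 7 higher and 1 to 16 lower at an unadjusted p under 0.05. Without overlap it gave 5 to 9 ATF4-branch genes higher and 8 to 12 lower, and 3 to 5 ER-branch genes higher and 8 to 11 lower, where a group of 1 array overlaps less easily. Other pathway genes ran from 1 to 9 higher and 2 to 38 lower. Medians ran from -0.085 to 0.11 for the ATF4 branch, -0.22 to -0.083 for the ER branch, -0.19 to -0.027 for other ATF4 genes, -0.41 to 0.20 for the synthetases and -0.30 to -0.011 for other ER genes. The cause of these moves was not tested. Depth has no counterpart on these arrays, and the deposited values carry no detection calls.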
